A study of Mus musculus with 12 samples.

Results

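The genes followed here, 10 in all, serve glycogen metabolism in mouse white adipocytes. Of these, 5 encode subunits that carry protein phosphatase 1 (PP1) to glycogen (Ppp1r3b, Ppp1r3c, Ppp1r3d, Ppp1r3f and Ppp1r3g) and 5 encode enzymes (Gys1, Gbe1, Pygl, Pygb and Ugp2). They are 10 of the 20295 genes in the count table, were found there by their symbols, and all 10 passed the filter on low counts, Ppp1r3g through its libraries with ISO alone. The set was chosen by measured values, since its rule notes that Ppp1r3g is near 0 without the agonist. Levels with and without the agonist therefore count as used, and every agonist difference of a member is given below as a description without a p-value. The interaction, which compares that difference with and without lipase inhibitors, was tested, but it is built from levels that count as used.

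The study asked how far the transcriptional response of adipocytes to β-adrenergic agonists needs the breakdown of stored fat. Mature adipocytes were floated out of collagenase-digested epididymal fat of lean male C57/BL6J mice, embedded in a hydrogel at 50000 cells per well and treated after 2 days. The 4 groups hold 3 libraries each. Vehicle libraries come from cells given DMSO alone, ISO libraries from cells given the β-adrenergic agonist isoproterenol for 3 h, Lip libraries from cells given lipase inhibitors, and Lip+ISO libraries from cells given the inhibitors and then ISO for 3 h. The study's methods name the inhibitors as Atglistatin, against the triglyceride lipase ATGL, and CAY10499, against the hormone-sensitive lipase HSL. All groups share the same strain, isolation and culture, the age of the mice is not stated in the labels, and nothing in the labels says which libraries share an animal. The study's methods give 3 independent experiments for its RNA-seq, without naming the libraries of each. P-values therefore measure the spread between these cultures.

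Glycogen is a store of glucose that fat cells keep in small amounts beside their triglyceride. Ugp2 makes UDP-glucose, Gys1 (glycogen synthase) adds it to the growing chain, Gbe1 makes the branches, and the phosphorylases Pygl and Pygb take glucose off again. Phosphorylation by kinases of the cAMP pathway turns the synthase down and the phosphorylase up. PP1 reverses this when a targeting subunit holds it on the glycogen particle, and the subunits differ in tissue and in how they are regulated.

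The stretches just upstream of Ppp1r3g, Ppp1r3c and Ppp1r3d are shown because these 3 subunits had the largest log2 differences between groups among the 10. Each is the 250 bases before the start of the gene in the count table, read 5′ to 3′ on the gene's own strand from the mouse genome mm9 (Ppp1r3g at chr13:36059525-36059774, plus strand; Ppp1r3c at chr19:36811095-36811344, minus strand; Ppp1r3d at chr2:178149169-178149418, minus strand). Capitals mark TGACG on either strand, the half-site of the cAMP response element (CRE), and CACGTG, a palindromic E-box.
Ppp1r3g: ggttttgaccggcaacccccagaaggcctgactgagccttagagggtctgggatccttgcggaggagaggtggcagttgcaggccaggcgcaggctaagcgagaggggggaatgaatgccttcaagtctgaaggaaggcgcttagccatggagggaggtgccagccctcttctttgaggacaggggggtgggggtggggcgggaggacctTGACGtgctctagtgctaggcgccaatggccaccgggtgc
Ppp1r3c: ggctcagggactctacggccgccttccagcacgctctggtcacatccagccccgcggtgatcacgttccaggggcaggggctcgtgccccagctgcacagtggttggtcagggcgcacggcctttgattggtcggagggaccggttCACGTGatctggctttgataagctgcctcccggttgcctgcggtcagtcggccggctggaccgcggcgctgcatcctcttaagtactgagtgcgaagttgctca
Ppp1r3d: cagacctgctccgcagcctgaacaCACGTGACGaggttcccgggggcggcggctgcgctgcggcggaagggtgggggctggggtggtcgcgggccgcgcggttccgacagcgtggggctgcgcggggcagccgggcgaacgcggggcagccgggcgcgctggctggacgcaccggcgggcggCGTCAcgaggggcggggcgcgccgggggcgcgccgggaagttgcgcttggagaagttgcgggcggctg
The half-site begins 40 bases before the start of Ppp1r3g, and 222 and 68 bases before that of Ppp1r3d. The E-box begins 104 bases before the start of Ppp1r3c and 226 bases before that of Ppp1r3d, where it shares its last letters with the half-site. On both strands, TGACG was found upstream of 5 of the 10 genes (Ppp1r3d, Ppp1r3f, Ppp1r3g, Pygl and Pygb) and in 21.2% of the 20295 windows of this length. CACGTG, which was searched for only after these letters had been seen, was found in 3 of 10 (Ppp1r3b, Ppp1r3c and Ppp1r3d) and in 6.92% of windows. The whole CRE, TGACGTCA, was in none of the 10 and in 2.14% of windows, and the nuclear receptor half-site AGGTCA was in 1 of 10 (Pygl) and in 12% of windows. The window of Gbe1 held 48.8% G or C bases and those of the other members 60% to 79.2%, beside a median of 56.4% over all windows. The shares of windows with a match were not adjusted for this. For 9 of the 10 genes the window is identical to the RefSeq promoter sequence, and for Ppp1r3b it is not.

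Total counts per library were 22632220 to 43707557, a 1.93-fold range, and 13543 genes were tested. CPM are read counts scaled to library size by TMM, and on that scale a count of 0, which allows up to 3 counts, stands for at most 0.126 CPM in a vehicle library, for counting error only. Adipocyte markers (8 genes, among them Adipoq and Plin1) summed to between 22653 and 35476 CPM in the 12 libraries. Of these 8, 1 rose and 1 fell with ISO against vehicle, and 1 rose and 2 fell in Lip+ISO against Lip. In Lip+ISO against ISO 1 of them fell. Markers of other cells that a floated preparation can hold were present at lower levels and moved with the treatment. Those of macrophages (7 genes found) summed to 45.4 to 58.8 CPM in vehicle, 89.3 to 133 in ISO, 46.7 to 54.5 in Lip and 55.2 to 100 in Lip+ISO, and 4 of 6 tested rose with ISO against vehicle. Those of fibroblasts and preadipocytes (7 genes) summed to 365 to 643, 709 to 936, 488 to 506 and 446 to 614 CPM in the same order. Of these 7, 3 rose with ISO against vehicle and 3 fell in Lip+ISO against ISO. The medians for endothelial (7 genes) and mesothelial (6 genes) markers were 0.94 and 0.90 higher on the log2 scale in ISO than in vehicle, and -0.77 and -0.70 in Lip+ISO against ISO, with 0 and 1 marker called in the first comparison and 0 in the second. Mural and smooth muscle markers (5 genes) summed to 116 to 332 CPM over all libraries, with medians of 0.43 and -0.31 and no call in these comparisons. Of 6 markers of striated muscle and liver, tissues rich in glycogen, 3 were tested and none was called in either comparison, with sums of 53.0 to 284 CPM. In Lip+ISO against Lip 1 of the 3 fell. Acta1 made up most of these sums, with group means of 73.0 to 188 CPM, and no other gene of this list had a group mean above 2.11 CPM. Of the red cell genes, Hba-a1 and Hbb-b1 were at 0 in every library, and Alas2 had group means of 0.256 to 0.528 CPM. The zeros of these globins do not show that red cell RNA was absent. The part of these other cells in the results below was not tested, and in bulk samples fewer cells of a type and less RNA per cell cannot be told apart.

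Levels can be set side by side between genes only per length, as CPM per kb of counted sequence. On that scale the enzymes lay above the targeting subunits in vehicle libraries. Ugp2 was highest at 62.5 ± 0.452 (SD, n = 3). Pygl (49.1 ± 3.16), Gbe1 (43.1 ± 6.58) and Gys1 (40.5 ± 3.54) followed, and the libraries of Pygl and Gbe1, and of Gbe1 and Gys1, overlapped. Pygb was at 28.0 ± 4.13. The 5 subunits of the set then fell in the order Ppp1r3d (8.46 ± 0.666), Ppp1r3c (5.40 ± 1.16), Ppp1r3b (1.46 ± 0.0992), Ppp1r3f (0.949 ± 0.232) and Ppp1r3g (0.0121), with no overlap between neighbours. Ppp1r3e, a targeting subunit outside the set, lay above Ppp1r3d in vehicle, at 11.5 ± 0.0280. The order among the 5 was different in each group with ISO. In ISO libraries Ppp1r3g (6.14 ± 1.19) and Ppp1r3c (5.98 ± 0.606) overlapped at the top of the 5, above Ppp1r3d (3.52 ± 0.291). Ppp1r3e was at 7.12 ± 0.265 there, above all Ppp1r3c libraries and overlapping those of Ppp1r3g. In Lip+ISO libraries Ppp1r3c (24.1 ± 3.91) overlapped the phosphorylase Pygb (24.3 ± 2.82) and lay above Ppp1r3g (11.8 ± 2.24) and Ppp1r3d (6.34 ± 0.774).

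**Figure D1:**
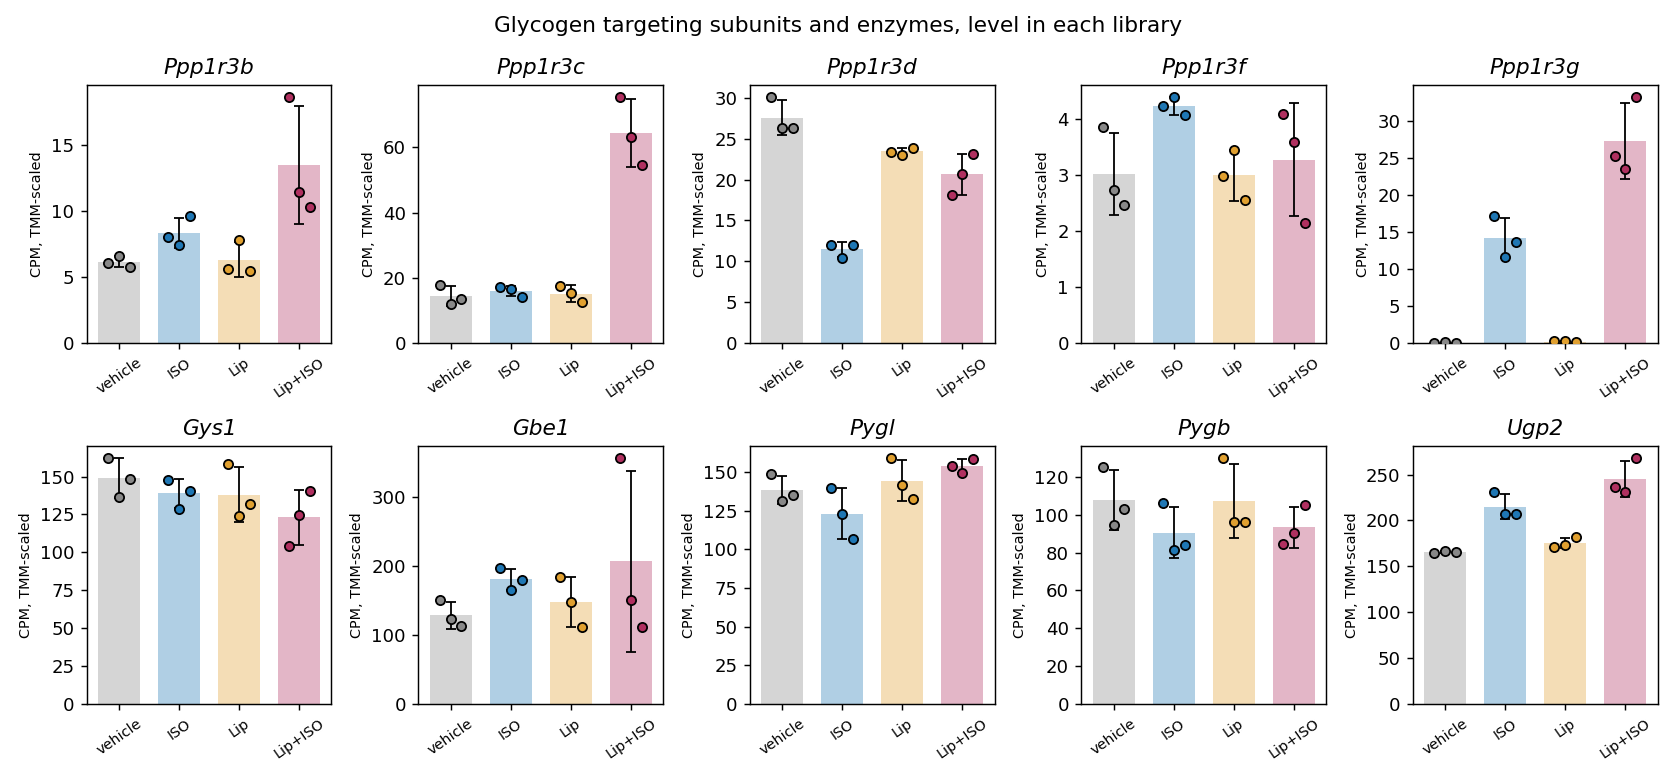
Level of each of the 10 genes in each library, in CPM scaled by TMM (vertical axes start at 0 and differ between genes), with 1 point per library, bars at the mean and error bars of 1 SD over 3 libraries of vehicle, ISO, Lip and Lip+ISO. Ppp1r3g is near 0 in the 6 libraries without ISO, Ppp1r3c is highest in the Lip+ISO group, and Ppp1r3d is lowest in the ISO group.

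Ppp1r3g, a targeting subunit known from liver for driving glycogen synthesis after a meal, lies on chromosome 13 (36059775 to 36062257, plus strand, mm9). Its raw counts were 0, 2 and 0 in vehicle replicates 1 to 3, 7, 8 and 3 in Lip, 389, 517 and 317 in ISO, and 625, 634 and 836 in Lip+ISO. In CPM the Lip libraries were at 0.240, 0.258 and 0.0830, the ISO libraries at 17.1, 11.7 and 13.7, and the Lip+ISO libraries at 25.3, 23.5 and 33.2. Every library with ISO lay far above every library without it, and every Lip+ISO library lay above every ISO library. The mean of 27.3 ± 5.17 CPM in Lip+ISO was at least 217-fold higher than vehicle, taking that limit of 3 counts in a vehicle library as the floor, and 141-fold the Lip mean of 0.194 ± 0.0962 CPM. Against ISO alone (14.2 ± 2.75 CPM), Ppp1r3g rose in Lip+ISO by 0.95 ± 0.24 on the log2 scale (SE, edgeR quasi-likelihood test with Benjamini-Hochberg adjustment, adjusted p = 0.0268). The call was lost without ISO replicate 2, ISO replicate 3 or Lip+ISO replicate 3, and without replicates 2 or 3 of every group, with an adjusted p of up to 0.212 in edgeR. Without ISO there were 18 counts over the Lip libraries and 2 over the vehicle libraries, levels that the choice of the set used and that are not compared further.

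Ppp1r3c, the subunit also known as PTG, which scaffolds PP1 with the synthase and the phosphorylase, lies on chromosome 19 (36806221 to 36811094, minus strand). It was at 17.9, 11.9 and 13.5 CPM in vehicle, 17.3, 16.6 and 14.2 in ISO, 17.6, 15.4 and 12.6 in Lip, and 75.4, 63.2 and 54.5 in Lip+ISO. The first 3 groups overlapped one another, and every Lip+ISO library lay above all the others. ISO differed from vehicle by 0.15 ± 0.17 and Lip+ISO from Lip by 2.08 ± 0.17 on the log2 scale (SE). Against ISO, Ppp1r3c rose in Lip+ISO by 2.01 ± 0.17 (edgeR adjusted p = 2.1e-05), and this call held in each of 15 fits that left out 1 library or 1 replicate number of every group. The interaction, which is the ISO difference with inhibitors minus that without, was 1.94 ± 0.24 (edgeR adjusted p = 0.00178). Without replicate 2 of every group its adjusted p was 0.0682 in edgeR.

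Ppp1r3d, another PP1 targeting subunit, lies on chromosome 2 (178145911 to 178149168, minus strand) and was lower with ISO alone. Its libraries were at 30.1, 26.3 and 26.3 CPM in vehicle, 12.02, 10.36 and 11.98 in ISO, 23.3, 23.0 and 23.9 in Lip, and 18.1, 20.7 and 23.2 in Lip+ISO. The ISO libraries lay below all others, and the Lip and Lip+ISO libraries overlapped. ISO differed from vehicle by -1.27 ± 0.11 and Lip+ISO from Lip by -0.18 ± 0.11 on the log2 scale (SE). Ppp1r3d rose in Lip+ISO against ISO by 0.85 ± 0.11 (edgeR adjusted p = 0.00043), in each of the 15 fits with a library or replicate number left out, and its interaction was 1.09 ± 0.15 (edgeR adjusted p = 0.00364). The interaction was not called without replicate 2 or without replicate 3 of every group, with an edgeR adjusted p of up to 0.142. All Lip libraries lay below all vehicle libraries, by -0.23 ± 0.11, which did not pass over all genes (edgeR adjusted p = 1.00, unadjusted p = 0.0482).

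Ppp1r3b, also called GL after its high level in liver, lies on chromosome 8 (36438795 to 36451191, plus strand) and was at 6.10, 6.59 and 5.76 CPM in vehicle, 8.02, 7.39 and 9.60 in ISO, 5.63, 7.82 and 5.42 in Lip, and 18.6, 11.5 and 10.3 in Lip+ISO. All 3 Lip+ISO libraries lay above all 9 others, with replicate 1 far above the other two. The difference was 1.10 ± 0.22 against Lip and 0.69 ± 0.22 against ISO on the log2 scale (SE), and the latter did not pass the test (edgeR adjusted p = 0.0751), although DESeq2 gave an adjusted p of 0.0225. Nor did its interaction of 0.66 ± 0.32 (edgeR adjusted p = 0.389). Ppp1r3f, on chromosome X (7135688 to 7151407, minus strand), had group means of 3.02 ± 0.737 CPM in vehicle, 4.23 ± 0.161 in ISO, 2.99 ± 0.449 in Lip and 3.27 ± 1.01 in Lip+ISO. Its ISO libraries lay above all vehicle libraries, and Lip+ISO differed from ISO by -0.37 ± 0.26 (edgeR adjusted p = 0.425).

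Summed per length, the 5 subunits stood at 16.3 ± 2.00 CPM per kb in vehicle, 18.9 ± 1.66 in ISO, 15.4 ± 1.07 in Lip and 46.5 ± 3.42 in Lip+ISO (SD, n = 3). The totals of vehicle and ISO libraries overlapped, while their makeup was different. Ppp1r3d supplied 52.2% ± 2.22 of the sum in vehicle, 46.9% ± 4.25 in Lip, 18.6% ± 1.16 in ISO and 13.8% ± 2.45 in Lip+ISO. Ppp1r3c supplied 32.9% ± 3.19, 36.7% ± 3.86, 31.7% ± 3.34 and 51.6% ± 5.60 in the same order of groups. Ppp1r3g supplied 0.0810% in vehicle, 0.534% in Lip, 32.2% ± 3.44 in ISO and 25.6% in Lip+ISO. Ppp1r3e, a further targeting subunit outside the set, would take 41.6% of the sum in vehicle if added, and the sums would then be 27.8 ± 2.00, 26.1 ± 1.76, 25.7 ± 0.756 and 53.7 in vehicle, ISO, Lip and Lip+ISO.

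**Figure D2:**
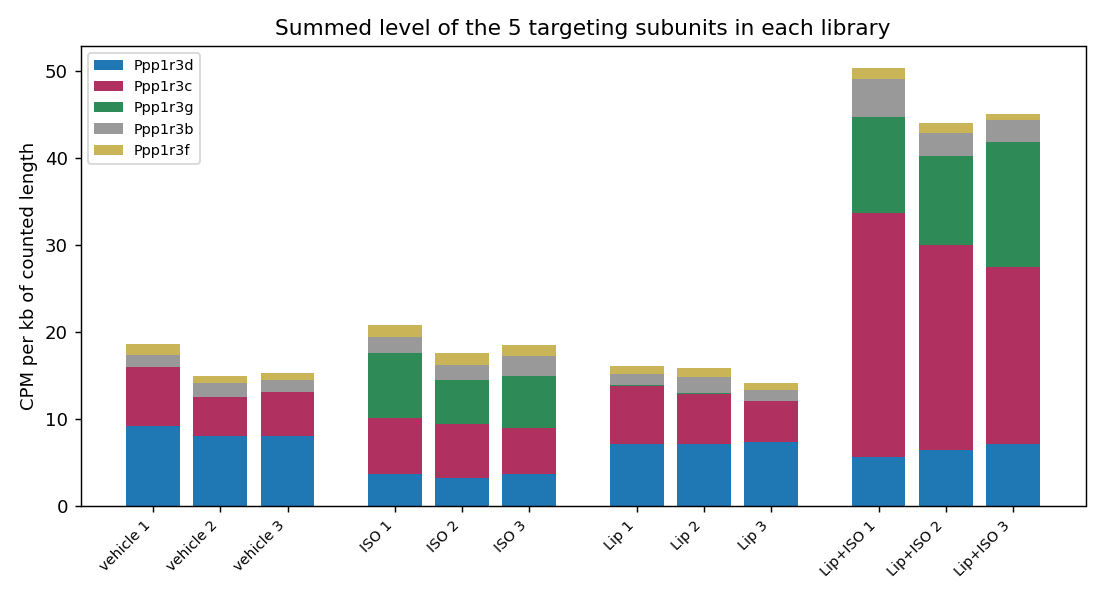
Summed level of the 5 targeting subunits in each of the 12 libraries, in CPM per kb of counted length, with 1 stacked bar per library and 1 colour per gene. Vehicle and ISO bars overlap in height (16.3 and 18.9 on average) but not in makeup, and the Lip+ISO bars average 46.5.

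Among the enzymes of synthesis, Ugp2 was higher wherever ISO was present. Its libraries were at 165, 167 and 165 CPM in vehicle, 231, 207 and 207 in ISO, 171, 173 and 182 in Lip, and 237, 231 and 268 in Lip+ISO. All libraries with ISO lay above all without it, by 0.38 ± 0.08 for ISO against vehicle and 0.49 ± 0.08 for Lip+ISO against Lip on the log2 scale (SE). Lip+ISO against ISO was 0.19 ± 0.08 and did not pass (edgeR adjusted p = 0.153). Ugp2 (chromosome 11, 21221129 to 21271270, minus strand) overlaps Vps54 on the opposite strand, and since nothing states that counting used strand its counts are uncertain. No other member overlaps another gene in the table.

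Gbe1, the branching enzyme on chromosome 16 (70314194 to 70569965, plus strand), varied widely among the Lip+ISO replicates. It was at 151, 123 and 113 CPM in vehicle, 197, 165 and 179 in ISO, 184, 147 and 111 in Lip, and 357, 151 and 112 in Lip+ISO. All ISO libraries lay above all vehicle libraries, but the Lip+ISO group ran from the level of the lowest vehicle library to the highest value of all. Lip+ISO against ISO was 0.20 ± 0.33 on the log2 scale (edgeR adjusted p = 0.764), and -0.46 without Lip+ISO replicate 1. Gys1, the glycogen synthase of muscle and fat on chromosome 7 (52690209 to 52711987, plus strand), was at 149 ± 13.02 CPM in vehicle, 139 ± 9.65 in ISO, 138 ± 17.9 in Lip and 123 ± 18.1 in Lip+ISO. Its difference between Lip+ISO and ISO was -0.17 ± 0.12, with a 95% interval of -0.43 to 0.09 (edgeR adjusted p = 0.417).

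The main fit, to all 12 libraries without a replicate term, called neither phosphorylase. Pygl, the liver form (chromosome 12, 71291802 to 71328670, minus strand), was at 148, 131 and 135 CPM in vehicle, 140, 123 and 107 in ISO, 159, 142 and 132 in Lip, and 154, 149 and 159 in Lip+ISO. All Lip+ISO libraries lay above all ISO libraries, by 0.32 ± 0.10 on the log2 scale, which did not pass the test (edgeR adjusted p = 0.0682). It did pass in DESeq2 (adjusted p = 0.0209), and in edgeR without ISO replicate 1 or without replicate 1 of every group. With the replicate number added to the fit as a block it also passed (edgeR adjusted p = 0.0107). Pygb, the brain form (chromosome 2, 150612532 to 150657484, plus strand), was at 108 ± 15.9, 90.6 ± 13.5, 107 ± 19.5 and 93.3 ± 10.8 CPM in vehicle, ISO, Lip and Lip+ISO. Its difference between Lip+ISO and ISO was 0.04 ± 0.15, with a 95% interval of -0.28 to 0.37 (edgeR adjusted p = 0.892). Per length, the ratio of Gys1 to both phosphorylases together was 0.526 ± 0.0126 in vehicle, 0.566 ± 0.0631 in ISO, 0.474 ± 0.0250 in Lip and 0.423 ± 0.0462 in Lip+ISO. The Lip+ISO libraries (0.370 to 0.456) lay below all vehicle and all ISO libraries and overlapped the Lip libraries.

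Counted over the 10 genes, the inhibitors alone gave no call. Lip against vehicle had 0 members called by edgeR and 0 by DESeq2, against 0.0517% of tested genes (0.00738% higher and 0.0443% lower). Ppp1r3g is set aside at the unadjusted threshold, because the choice of the set used its levels without ISO. Of the other members only Ppp1r3d had an unadjusted p under 0.05 in edgeR, beside 582 of all 13543 genes. The libraries of Lip and vehicle did not overlap for 2 members (Ppp1r3d, lower, and Ugp2, higher) and for 10.4% of tested genes. With ISO present, 3 members rose in Lip+ISO against ISO (Ppp1r3c, Ppp1r3d and Ppp1r3g) and none fell, against 8.94% of tested genes (4.36% higher and 4.59% lower). Of the 10, 6 had all Lip+ISO libraries above all ISO libraries, and 25.4% of tested genes did not overlap in either direction. The interaction called 2 members (Ppp1r3c and Ppp1r3d), both positive, and 1.62% of all genes (0.901% positive and 0.724% negative). It is built from the agonist differences that the choice of the set used. The median log2 fold change of members was 0.26 in Lip+ISO against ISO, 0.05 in Lip against vehicle and 0.08 for the interaction, beside -0.01, 0.00 and -0.02 for all tested genes. The 10 genes were chosen with earlier results of these data known, so these counts and medians are no independent evidence.

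Under ISO, which the choice of the set used, the counts by the same threshold are a description and nothing is read from them. Of the 10, 2 were called higher than vehicle (Ppp1r3g and Ugp2) and 1 lower (Ppp1r3d), and over all tested genes the share called was 26.2% (12.3% higher and 13.9% lower). In Lip+ISO against Lip, 4 were called higher (Ppp1r3b, Ppp1r3c, Ppp1r3g and Ugp2) and 0 lower, and over all tested genes the share called was 27.3% (11.5% higher and 15.8% lower). Libraries did not overlap for 6 members in the first comparison, beside 43.3% of all genes, and for 4 in the second, beside 39.1%. Scaling to library totals alone put the median of all genes at -0.12 on the log2 scale in Lip+ISO against Lip, with 1069 genes called higher and 2968 lower there, in place of 1562 and 2140, and 1365 and 2329 in ISO against vehicle, in place of 1670 and 1878. With it, 5 members were called in the first of these, 4 higher and 1 lower, and 3 in the second. Both tested comparisons with Lip+ISO share its 3 libraries, so their values for a gene are not independent of each other.

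**Figure D3:**
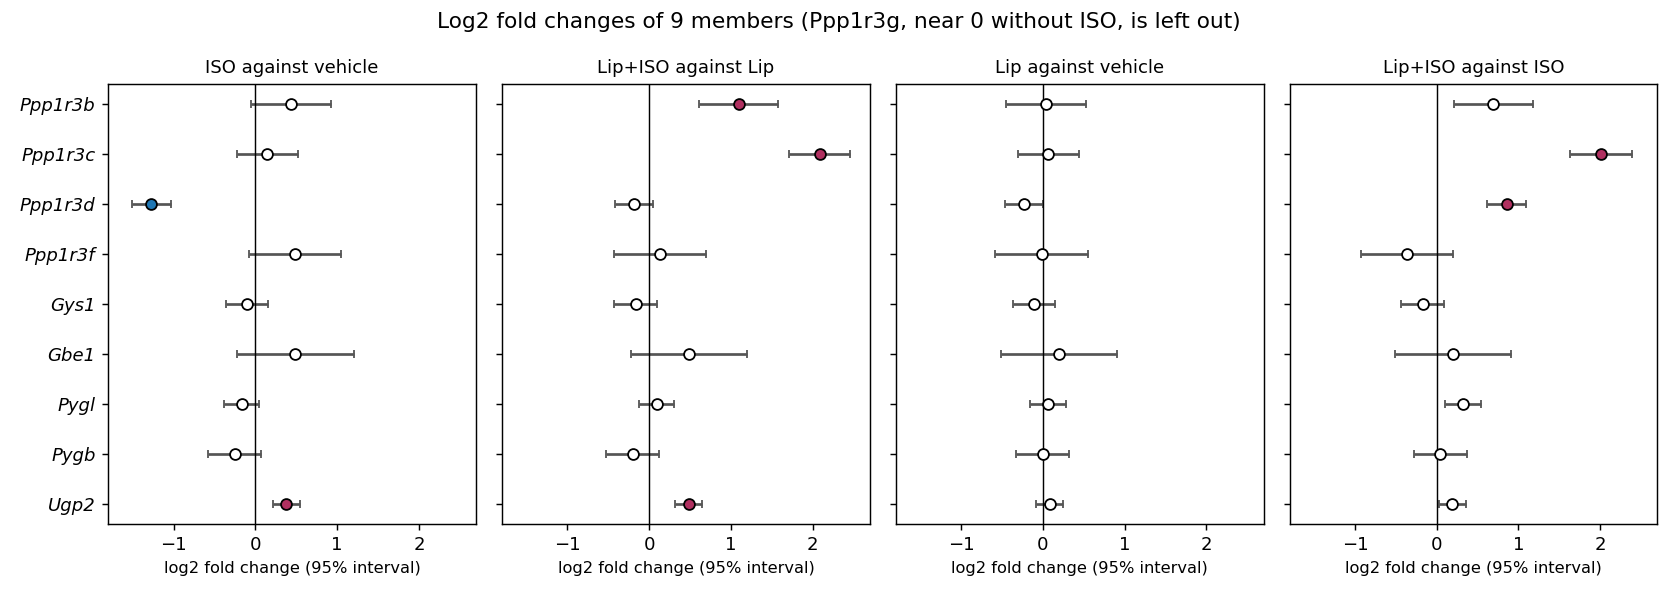
Log2 fold change of 9 of the 10 genes in 4 comparisons, with 95% intervals from the fit to all 12 libraries. Filled points had an edgeR adjusted p at or under 0.05 (red higher, blue lower), which for both comparisons of ISO against no ISO is a description only, and Ppp1r3g is left out because its vehicle level is near 0. Ppp1r3c lies at 2.08 and 2.01 in both comparisons with Lip+ISO, and all points of Lip against vehicle are open.

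The rest of the pathway gives the setting. Of 27 further glycogen genes listed, 26 were tested, and the muscle targeting subunit Ppp1r3a was too low. They were tested in every comparison, but the list was written with earlier results known, so its counts are no independent evidence. With ISO against vehicle 5 rose and 4 fell, where 26.2% of all tested genes were called, and with Lip+ISO against Lip 3 rose and 6 fell, where 27.3% were called. Their median log2 fold change was 0.03 in both, beside 0.00 for all genes.

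On the synthesis side, Hk2, the hexokinase that traps glucose in insulin-sensitive tissues, rose by 1.59 ± 0.16 on the log2 scale with ISO against vehicle (edgeR adjusted p = 1.2e-05), from 250 ± 25.7 to 755 ± 89.2 CPM. It rose by 1.41 ± 0.15 with Lip+ISO against Lip (edgeR adjusted p = 2.0e-05), from 246 ± 42.6 to 651 ± 124 CPM. Pgm1, as the table names a phosphoglucomutase gene on chromosome 5, rose by 0.79 ± 0.15 with ISO (edgeR adjusted p = 0.0021), and its edgeR adjusted p was 0.0538 without replicate 3 of every group. Pgm2, the listed gene on chromosome 4, is named although it was not called, at 0.10 ± 0.11 with ISO (edgeR adjusted p = 0.502). In vehicle Pgm2 was at 111 ± 5.36 CPM per kb and Pgm1 at 6.70 ± 1.12. Ppp1r2, an inhibitory subunit of PP1, rose by 0.55 ± 0.10 with Lip+ISO against Lip (edgeR adjusted p = 0.0014).

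Laforin and malin, a phosphatase and a ubiquitin ligase that keep glycogen normally branched and act on targeting subunits, had lower transcript levels with ISO. Nhlrc1 (malin) fell by 0.88 with ISO against vehicle (SE 0.20, edgeR adjusted p = 0.0065) and by 1.40 with Lip+ISO against Lip (SE 0.20, edgeR adjusted p = 0.00021). The first of these calls was lost without replicate 1 or without replicate 3 of every group (edgeR adjusted p up to 0.0824). Epm2a (laforin) fell by 0.87 with ISO (SE 0.29, edgeR adjusted p = 0.0401), a call lost in 8 of 15 fits with libraries left out (without vehicle replicate 1 or 2, ISO replicate 2 or 3, Lip+ISO replicate 2, or any 1 replicate number of every group). Ppp1r1b, a PP1 inhibitor with group means of 0.860 to 3.42 CPM, fell by 1.57 with Lip+ISO against Lip (SE 0.49, edgeR adjusted p = 0.0299). Its Lip libraries were at 2.51, 1.87 and 5.90 CPM, with replicate 3 standing apart, and they overlapped the Lip+ISO libraries at 0.445, 1.11 and 1.91 CPM. The call was lost in 6 of 15 fits with libraries left out (without Lip replicate 3, Lip+ISO replicate 1 or 2, or any 1 replicate number of every group), and the difference ranged from -2.11 to -0.92. The remaining calls were named after their values were seen. With ISO against vehicle they were Ppp1cc, Gaa and Ppp1r2 higher and Gsk3b and Ppp1r3e lower. Of these, Ppp1cc and Ppp1r2 were each lost in 6 of 15 fits with libraries left out, and Gaa in 4. With Lip+ISO against Lip they were Ppp1cb higher and Epm2a, Gsk3b, Stbd1 and Ppp1r3e lower. There Ppp1cb (0.19 ± 0.06, edgeR adjusted p = 0.0426) was lost in 14 of 15 such fits, Epm2a in 6 and Ppp1r3e in 2. The other remaining calls held in all 15 fits.

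In the fit to all 12 libraries without a replicate term, edgeR called none of the 26 in Lip against vehicle, in Lip+ISO against ISO or for the interaction. At an unadjusted p under 0.05 there were 1, 3 and 3 of them, beside 582, 3230 and 1868 of the 13543 genes. DESeq2 called 0, 1 (Ppp1cb) and 0 of them, beside 57, 1737 and 579 of all genes.

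**Figure D4:**
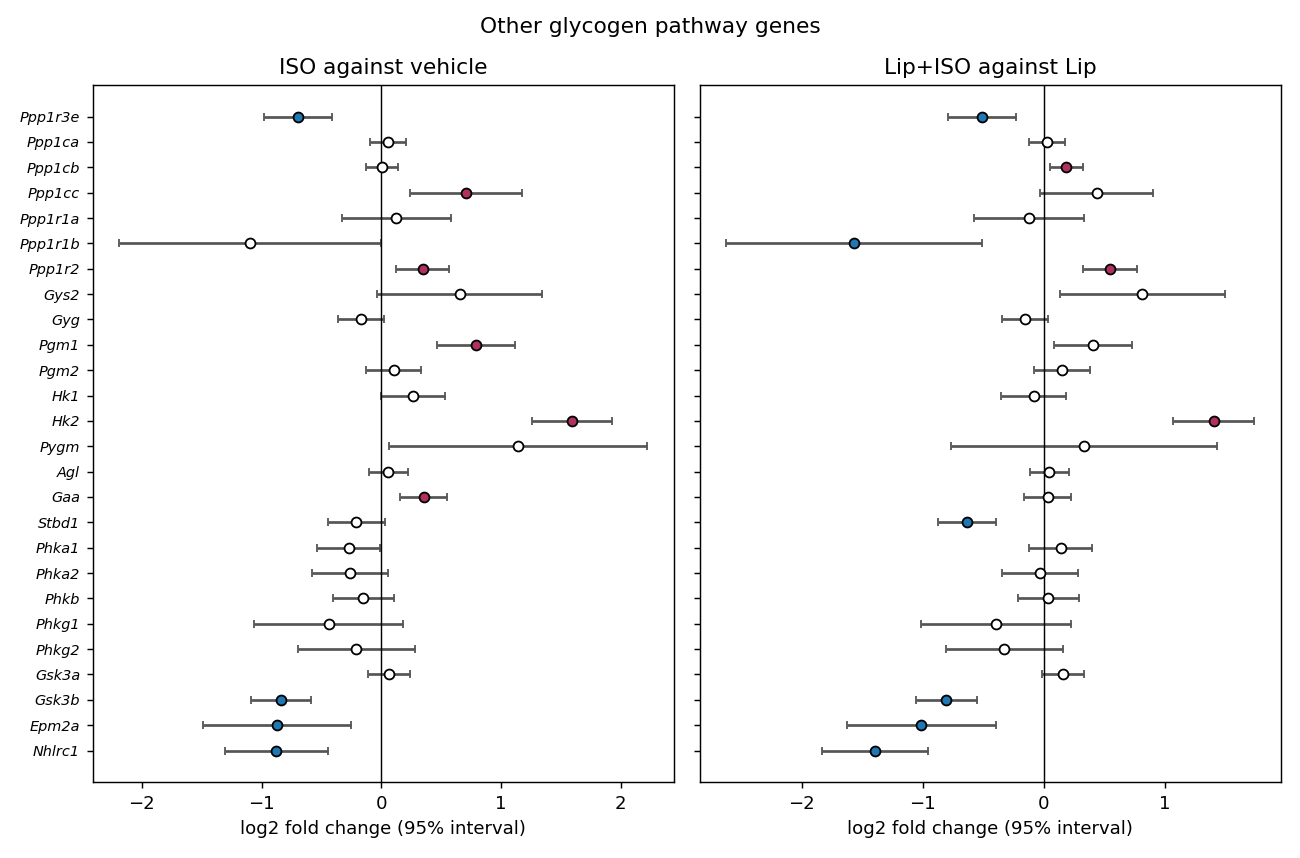
Log2 fold change of 26 further glycogen pathway genes with ISO against vehicle and with Lip+ISO against Lip, with 95% intervals from the fit to all 12 libraries and filled points for an edgeR adjusted p at or under 0.05 (red higher, blue lower). Hk2 lies farthest to the right at 1.59 and 1.41, and Nhlrc1, Epm2a and Gsk3b lie to the left in both.

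Across the 12 libraries, the genes whose log2 CPM followed that of Ppp1r3g most closely were Litaf (Pearson r = 0.991), Alpl (0.989), Sertad1 (0.989), Gpr153 (0.989) and Smarca5 (0.986), out of 10229 genes with at least 5 CPM in a group. The libraries fall into those with and those without ISO, so these values describe a shared step between groups of libraries and carry no p. Each of the 5 was expressed without ISO, with vehicle means of 209 CPM for Litaf, 19.0 for Alpl, 32.0 for Sertad1, 23.1 for Gpr153 and 33.1 for Smarca5. Their Lip+ISO means were 501, 167, 74.3, 172 and 175 CPM, each above the ISO mean of the same gene (421, 102, 70.9, 112 and 126 CPM). Ppp1r3g has the same order, and the genes were picked by likeness to it over these libraries, so that order is no separate result.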

How the data were processed

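RNA sequencing counts of 12 libraries (4 groups of 3) were taken as deposited. The authors mapped reads on mm9 using STAR 2.4.2a, kept 1 read per position and length in HOMER, and obtained raw counts for RefSeq genes using iRNA-seq, with no normalization. Deposited counted lengths served only for values per kb. Groups and replicate numbers come from the sample titles, and starts are printed from 1. The 10 genes, the pathway list of 27 genes and the marker lists were chosen with earlier results of these data known.

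In R 4.3.3, edgeR 4.0.16 was run with filterByExpr, TMM scaling and a quasi-likelihood fit of 4 group means to all 12 libraries. The test was two-sided, p-values were adjusted by Benjamini-Hochberg over 13543 genes, and adjusted values up to 0.05 made a call. CPM values are TMM-scaled, and log2 CPM used a prior count of 2. Totals of 22632220 to 43707557 counts set the precision. DESeq2 1.42.0, other scalings, no filter, a replicate block, 2-group fits, a minimum fold and fits leaving out libraries were the alternatives. Leave-out fits for the other pathway genes, and the sum with Ppp1r3e, were chosen after seeing the data. On data simulated for Lip+ISO against ISO (13353 genes), 75% of 100 genes changed by 1 on the log2 scale and 95% of 100 changed by 2 were called, with 8 false calls. The simulated libraries were independent, only Lip+ISO was shifted, and no replicate effect was included, so these rates need not hold for the real libraries.

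The text names all 10 members, the 5 genes most like Ppp1r3g and, of the other pathway genes, at most the 2 called genes with the largest change in each direction per comparison, with exceptions stated. The figure legend for these cells names SR-3420 as the stimulus, while the labels name ISO, which was used.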

Additional observations from a re-analysis of the deposited data

Results flagged for a closer look

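By the interaction term of the edgeR quasi-likelihood fit, 2 of the 10 genes had a higher log2 ISO difference with lipase inhibitors than without them. For Ppp1r3c the ISO difference was 1.94 higher with inhibitors, in log2 units (edgeR adjusted p = 0.00178, SE 0.24), and all 3 Lip+ISO libraries lay above the other 9. For Ppp1r3d it was 1.09 higher (SE 0.15, edgeR adjusted p = 0.00364), with -1.27 for ISO against vehicle and -0.18 for Lip+ISO against Lip. The interaction is built from the agonist differences that the choice of the set used. The cause was not tested.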

How the results depend on the processing

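Of the 10 genes, 3 were called in Lip+ISO against ISO. A minimum log2 fold change of 1 left 1 (Ppp1r3c), and the DESeq2 Wald test gave 5, adding Ppp1r3b and Pygl, while calls over all genes went from 1211 to 269 and 1737. Fits leaving out a library or a replicate number gave 2 to 4 calls there (379 to 1206 over all genes), 0 to 2 for the interaction (2 in the full fit, 15 to 328 over all genes), 2 to 3 for ISO against vehicle (3), 3 to 4 for Lip+ISO against Lip (4) and 0 for Lip against vehicle (0). In those fits the log2 fold change of Lip+ISO against ISO changed sign for Gbe1 (-0.46 to 0.50) and Pygb (-0.10 to 0.25), neither of which was called in any. The interaction called 0 members without replicate 2 and 1 without replicate 3 of every group, fits with fewer libraries. Of the 5 genes most like Ppp1r3g, 3 were among the 5 with a prior count of 0.5 and 3 with Spearman's rho. The titles number replicates alike in each group, but not all of the 18 correlations of same-numbered deviations exceeded 0.1 (17 did, range 0.0373 to 0.369), so the numbers were not taken as pairs, although 12 of 12 libraries correlated best with their own number. A replicate block called 4 members in Lip+ISO against ISO, adding Pygl, and 2607 genes in place of 1211. Of the 26 other pathway genes it called 14 in ISO against vehicle and 12 in Lip+ISO against Lip, in place of 9 in each, and 1 (Gaa, lower) in Lip+ISO against ISO and for the interaction, in place of 0. The block left the member counts at 3, 4, 0 and 2 in ISO against vehicle, Lip+ISO against Lip, Lip against vehicle and the interaction.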
